A study of Mus musculus with 20 samples.

Results

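The 40 genes described here encode proteins of the G2 phase and of mitosis, from Cdk1 and its cyclins to the kinesins, centromere proteins and condensins. They were followed in single thymic intraepithelial lymphocyte precursors (IELPs), CD4-CD8-TCRαβ+ thymocytes that give rise to T cells of the gut epithelium. The members were fixed by name, and all 40 occur among the 25246 genes of the tables, in which mitochondrial genes and spike-ins were not counted. Each of 20 CEL-Seq2 libraries held 96 sorted cells, and a cell was kept when it had at least 2000 transcripts. This left 1413 of 1920 cells, and the summed member transcripts per cell ranged from 0 to 83 of 2000 drawn transcripts. The TBGR mouse, labelled wild type, carried a ZsGreen reporter of T-bet and was 4 weeks old. It gave 8 libraries, 2 for each of 4 gates. The first held CD122-T-bet- cells, the second CD122+ cells that were still T-bet-, and the last pair CD122+ cells with intermediate (T-bet int) or high reporter signal. Below, CD122- and CD122+ cells are those of the first and second gate. The TBGR C-mycfl/fl mouse, with floxed C-myc and no Cre named in its label, was 2 weeks old and gave 8 libraries, each holding 2 gates side by side. The TBGR C-mycD/DCd4 mouse, in which a Cd4-Cre transgene deletes the floxed C-myc in the T cell lineage, was also 2 weeks old and gave 4 libraries of the T-bet- gates. All 3 genotypes thus carried the reporter. The labels read here give genotype and age but no animal, and the study writes both of a mouse and of mice. For the last 2 genotypes it gives an age of 2 to 3 weeks. Each genotype was treated as 1 mouse and is named so below. Libraries of a genotype may share an animal, so no p-value was computed and every difference describes only the animals sampled.

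Entry into mitosis is driven by Cdk1 bound to cyclin A or cyclin B, and the kinases Plk1, Aurora A and Aurora B carry the signal to centrosomes, kinetochores and chromosomes. The spindle checkpoint, with Bub1, Bub1b, Bub3 and Ttk, holds the anaphase-promoting complex (APC/C) and its activator Cdc20 until all chromosomes are attached. Most of these genes are transcribed in a wave that peaks in G2 and mitosis, so their RNA marks the cycling cells of a mixed population. Thymocytes divide in bursts, above all between the pre-TCR checkpoint and the CD4+CD8+ stage, and again after later signals in some lineages.

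The wave is attributed to promoter elements known as CHR and CCAAT boxes, which are read by the DREAM and MuvB complexes and by NF-Y. RefSeq windows of 300 bases, from 250 before to 50 after the start on GRCm38.p6, were at hand for 33 of the 40 members. The letters TTTGAA (CHR), on either strand, occurred in 25 of these 33 genes, 75.8%, against 20.2% of 27025 genes. The letters CCAAT, on either strand, occurred in 29 of 33, 87.9%, against 41.1%. Both motifs together occurred in 24 of 33, 72.7%, against 7.97%, whereas the E box CACGTG, the letters bound by C-Myc and other factors, occurred in 3 of 33, 9.09%, against 8.09%. Such matches describe these windows and are no evidence of binding. The last 120 bases before the start are shown for 4 members of different function that hold both motifs, with both motifs in capitals, in either orientation.
Cdk1, chr10:69352913-69353032, minus strand: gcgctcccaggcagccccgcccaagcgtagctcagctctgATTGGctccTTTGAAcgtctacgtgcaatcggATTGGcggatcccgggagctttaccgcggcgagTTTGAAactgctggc
Cdc20, chr4:118437344-118437463, minus strand: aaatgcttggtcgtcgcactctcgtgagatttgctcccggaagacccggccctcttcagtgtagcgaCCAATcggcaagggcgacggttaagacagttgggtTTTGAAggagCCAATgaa
Ube2c, chr2:164769809-164769928, plus strand: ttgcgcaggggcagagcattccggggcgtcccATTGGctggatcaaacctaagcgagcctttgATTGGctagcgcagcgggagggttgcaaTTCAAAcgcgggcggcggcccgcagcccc
Top2a, chr11:99024190-99024309, minus strand: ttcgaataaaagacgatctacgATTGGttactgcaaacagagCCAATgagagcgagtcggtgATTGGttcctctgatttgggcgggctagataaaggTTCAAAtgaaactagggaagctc
At the CD122 step of 2 mice these members were high and low together. Cdk1, Cdc20, Ube2c and Top2a were each higher in the CD122+ than in the CD122- cells of the TBGR mouse, with log2 ratios of 4.29, 3.71, 3.91 and 3.40, and each lower in the C-mycD/DCd4 mouse, at -2.85, -2.09, -4.51 and -3.66. In the C-mycfl/fl mouse none of the 4 was called at that step, with ratios of 0.93, 0.47, 0.0079 and 0.65. Birc5, Nusap1 and Tacc3, whose windows held neither motif, moved the same way in the first 2 mice. Their log2 ratios were 6.24, 2.70 and 3.46 in the TBGR and -3.45, -3.42 and -2.43 in the C-mycD/DCd4 mouse. The movement was thus not particular to members with the motifs.

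The kept cells numbered 112 to 186 per population, with medians of 4239 to 7074 transcripts, and each gate of a library summed to between 94268 and 775264 transcripts. Il2rb, which encodes CD122, lay at 2.61 to 9.88 transcripts per 1000000 counted (CPM) in the CD122- gates and at 222 to 515 CPM in the CD122+ gates. Tbx21, which encodes T-bet, reached 165 CPM in the TBGR and 60.0 CPM in the C-mycfl/fl T-bet high gate. The design text names the sort NK1.1+ and the study's methods NK1.1-. Klrb1c, which encodes NK1.1, was listed with 0 to 81.5 CPM in 9 of the 10 populations and 563 CPM in the TBGR T-bet high cells. The predicted gene Gm10800 took 22.2% of all transcripts. Together with 15 other genes, 3 further genes named in the study's methods (Kcnq1ot1, Gm10715 and Gm42418) and 12 whose share correlated with that of any of the 4 over cells, it took between 9.2% of the transcripts in the TBGR T-bet int gate and 50.7% in the C-mycfl/fl CD122- gate, so that all other genes shared what was left. No member was among them. In bulk sums over a gate, fewer cycling cells and less RNA per cycling cell cannot be told apart, which is why sums are given beside shares of cells.

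Markers of other cells were summed in the same way. The T cell list, with 9 of 10 genes in the tables, stood at 4313 to 8213 CPM in all gates. A list of 9 genes of CD4+CD8+ thymocytes, including Rag1, Rag2 and Dntt, moved with the CD122 gate, at 725 to 833 CPM in the CD122- and 180.2 to 188 CPM in the CD122+ libraries of the TBGR mouse, 274 to 454 against 21.2 to 69.1 CPM in the C-mycfl/fl mouse, and 647 to 886.5 against 182 to 197 CPM in the C-mycD/DCd4 mouse. Of 7 genes of pre-TCR thymocytes, 4 to 6 were detected in each gate, with sums of 15.3 to 206 CPM. The list of 6 B cell genes was highest in C-mycD/DCd4 CD122+ cells, at 111 and 510.3 CPM by library. Sums over the other lists ran from 34.6 to 656 CPM for myeloid or dendritic cells, from 397 to 1337 CPM for γδ T cells, from 18.5 to 78.9 CPM for NKT cells, with Trav11 at 0 in all but 1 gate, and from 0 to 75.8 CPM for erythroid cells. Their part in the results was not tested, apart from the cells with thymocyte or B cell transcripts that are left out in a comparison given last.

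In the TBGR mouse, the summed members were low at both ends of the series of gates and high in the middle. Their sum was 1940.1 CPM (95% exact Poisson interval 1854 to 2029) in CD122- cells, 6533 CPM (6402 to 6665) in CD122+ cells, 8115 CPM (7960.3 to 8272) in T-bet int cells and 1318 CPM (1235 to 1406) in T-bet high cells. By library it was 2195 and 1691 CPM, 6462 and 6611 CPM, 8105 and 8125 CPM, and 936 and 2090.3 CPM in the same order. The 4 gates did not overlap except for the first and the last. These intervals cover counting error only.

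A cell was called high-scoring when at least 20 of 2000 transcripts drawn from it, 1%, came from the members. Among TBGR cells this held for 1 of 174 CD122- cells, 0.575% (95% exact binomial interval 0.0145 to 3.16%). It held for 18 of 186 CD122+ cells, 9.68% (5.84 to 14.9%), and for 27 of 171 T-bet int cells, 15.8% (10.7 to 22.1%). In the T-bet high gate it held for 2 of 147 cells, 1.36% (0.165 to 4.83%). The libraries of the middle gates gave 9.57% and 9.78% for CD122+ cells and 19.5% and 11.9% for T-bet int cells, and those of the outer gates 1.15% and 0%, and 0% and 3.64%. A library of 87 cells with none allows a share of up to 3.45% at 3 counts, or 4.15% by the exact interval, and one of 92 cells up to 3.26% or 3.93%. The difference between T-bet int and CD122+ cells, 6.11 percentage points, had a 95% Newcombe interval of -1.17 to 13.5. This interval takes cells as independent and covers counting error only, so it is no test. Both T-bet int libraries lay above both CD122+ libraries, the lower one by little. At a threshold of 10 of 2000 transcripts the order turned, with 45.7% of CD122+ and 29.2% of T-bet int cells above it. Over all mice, 101 of the 1413 cells scored between 15 and 24, near the threshold.

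**Figure D1:**
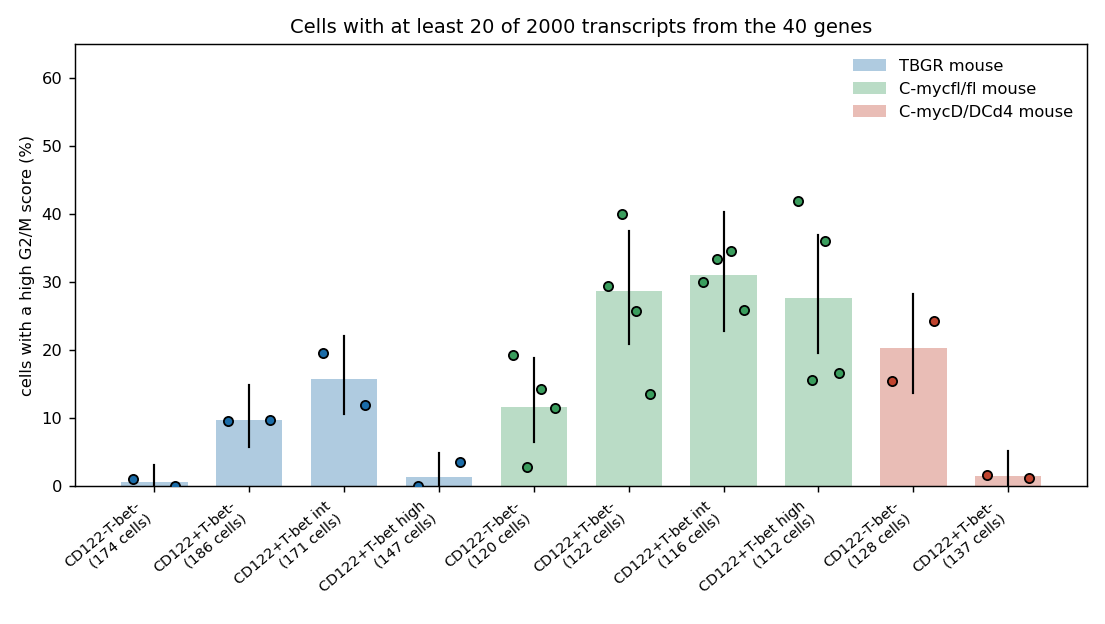
Share of cells with a high G2/M score (y axis, percent) in the 10 sorted populations (x axis). Bars give the pooled share with its 95% exact binomial interval and points the single libraries. The share is 9.68% and 15.8% in the middle TBGR gates and at most 1.36% in the outer ones, while in the C-mycD/DCd4 mouse it is 20.3% in CD122- and 1.46% in CD122+ cells.

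**Figure D2:**
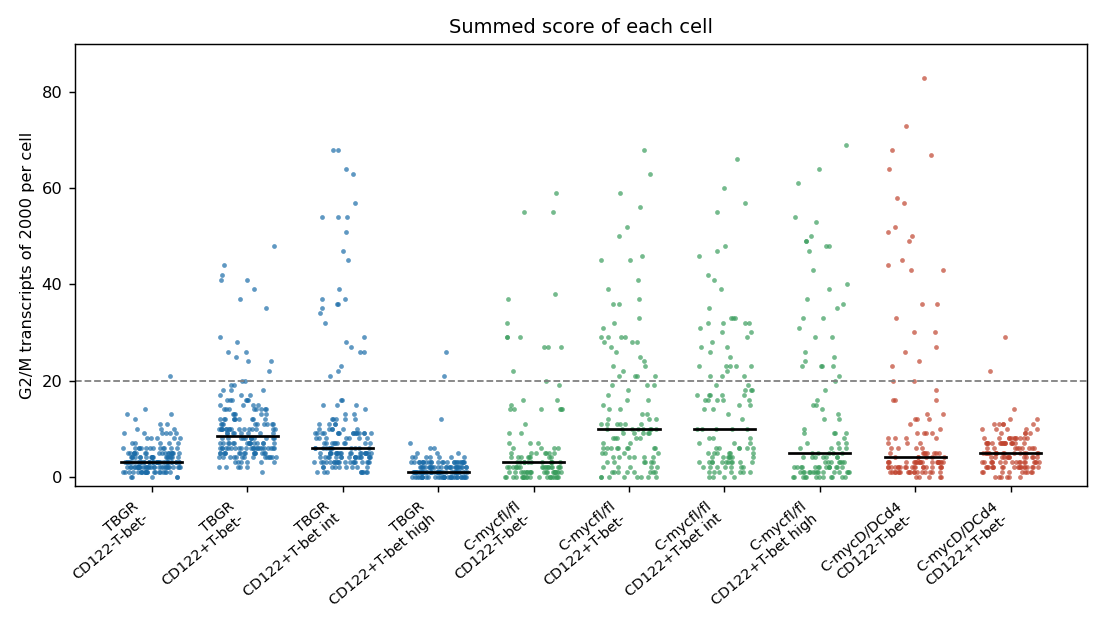
Member transcripts among 2000 drawn from each cell (y axis), 1 point per cell, by mouse and population (x axis). Lines mark medians, which run from 1 in TBGR T-bet high cells to 10 in the C-mycfl/fl CD122+ and T-bet int cells, and the dashed line marks the threshold of 20.

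Between CD122- and CD122+ cells of the TBGR mouse, nearly the whole program was higher in the CD122+ gate. A gene was called when its summed ratio passed 2-fold and the library values of the gates did not overlap. Of the 36 members with at least 20 transcripts in both gates together, 32 were called higher and none lower. Over all 9262 genes so tested, 14.3% were called higher and 3.92% lower. The median log2 ratio of the members was 3.43, or 3.21 with the members that had no transcript in CD122- cells set to a floor of 3 transcripts over the gate, against 0.26 over all genes. All 6 genes of the cyclin group were called. Mki67, the proliferation antigen that coats mitotic chromosomes, measured 14.5 and 6.04 CPM in the CD122- and 353 and 259.5 CPM in the CD122+ libraries, a log2 ratio of 4.85. Cdk1, the mitotic kinase, measured 6.20 and 0 CPM against 60.6 and 79.3 CPM, and its cyclin partner Ccnb2 2.07 and 0 CPM against 67.1 and 72.1 CPM. The libraries of the gates were far apart for each of these genes.

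The same held for the machinery of attachment and exit. Cenpe, the kinetochore motor that carries chromosomes to the spindle equator, measured 0 and 2.01 CPM in CD122- and 103 and 114 CPM in CD122+ libraries. Ube2c, the ubiquitin-conjugating enzyme of the APC/C, measured 12.4 and 2.01 CPM against 126.4 and 102 CPM. A set of 7 members had no transcript in any CD122- cell of this mouse, where 3 transcripts would be 3.06 CPM. Against that floor Tpx2, the spindle assembly factor that activates Aurora A, was at least 18.02-fold higher in CD122+ cells, Birc5, the survivin subunit of the chromosomal passenger complex, at least 12.5-fold and its kinase Aurkb at least 8.23-fold. The 4 tested members not called were Bub3 (log2 ratio 0.65), Tubb5 (0.79), Smc2 (0.82) and Kif23 (-0.18). Bub3, Tubb5 and Smc2 encode a checkpoint protein, a tubulin and a condensin subunit, and they had transcripts in 45, 145 and 40 of the CD122- cells. Kif23, the central spindle kinesin, was the exception among mitotic motors, with 37 transcripts in 26 CD122- cells, 29 of them in 1 library (59.9 and 16.1 CPM) and none in the high-scoring cell.

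From CD122+ to T-bet int cells the members moved further up in sums over cells, by less. The CD122+ cells entered both this and the former comparison. Of 39 tested members 36 had a ratio above 0, with a median of 0.81 against -0.02 over all 9461 genes, and 9 were called higher, against 3.49% of all genes, and none lower, against 6.94%. The 9 were Ccna2 (1.08), Ccnb1 (1.15), Cdc20 (1.15), Birc5 (1.63), Nusap1 (1.55), Prc1 (2.80), Racgap1 (1.42), Ttk (1.24) and Anln (2.29). Prc1, Racgap1 and Anln act in the central spindle and the cleavage furrow at the end of mitosis. Racgap1 measured 51.6 and 51.9 CPM in CD122+ and 141 and 136 CPM in T-bet int libraries, without overlap. Anln measured 5.16 and 5.77 CPM against 25.8 and 30.04 CPM. Mki67 and Top2a, the topoisomerase that untangles sister chromatids, lay just below 2-fold, at 0.96 and 0.98.

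In T-bet high cells the program was low again. Of 39 tested members 38 were called lower than in T-bet int cells, where 11.7% of all 8564 genes were called lower and 7.93% higher, and the median log2 ratio was -3.27, against -0.09 over all genes. The 1 member not called was Bub3, with 127 and 155 CPM in T-bet int and 97.6 and 98.5 CPM in T-bet high libraries. Mki67 measured 641 and 558 CPM in T-bet int and 4.24 and 94.2 CPM in T-bet high libraries, Top2a 608 and 604 CPM against 2.12 and 103 CPM, and Ube2c 161 and 226 CPM against 8.49 and 0 CPM. The libraries of the T-bet high gate differed from each other, because both high-scoring cells of this gate lay in the second. Without that library the log2 ratio of the summed members was -3.12, without the first it was -1.96, and it was -2.62 with both. Of these 2 cells, 1 held 30 transcripts of Rag1, 18 of Dntt and 7 of Ptcra, genes of thymocytes that still rearrange their receptors, and the other held none of the 3.

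**Figure D3:**
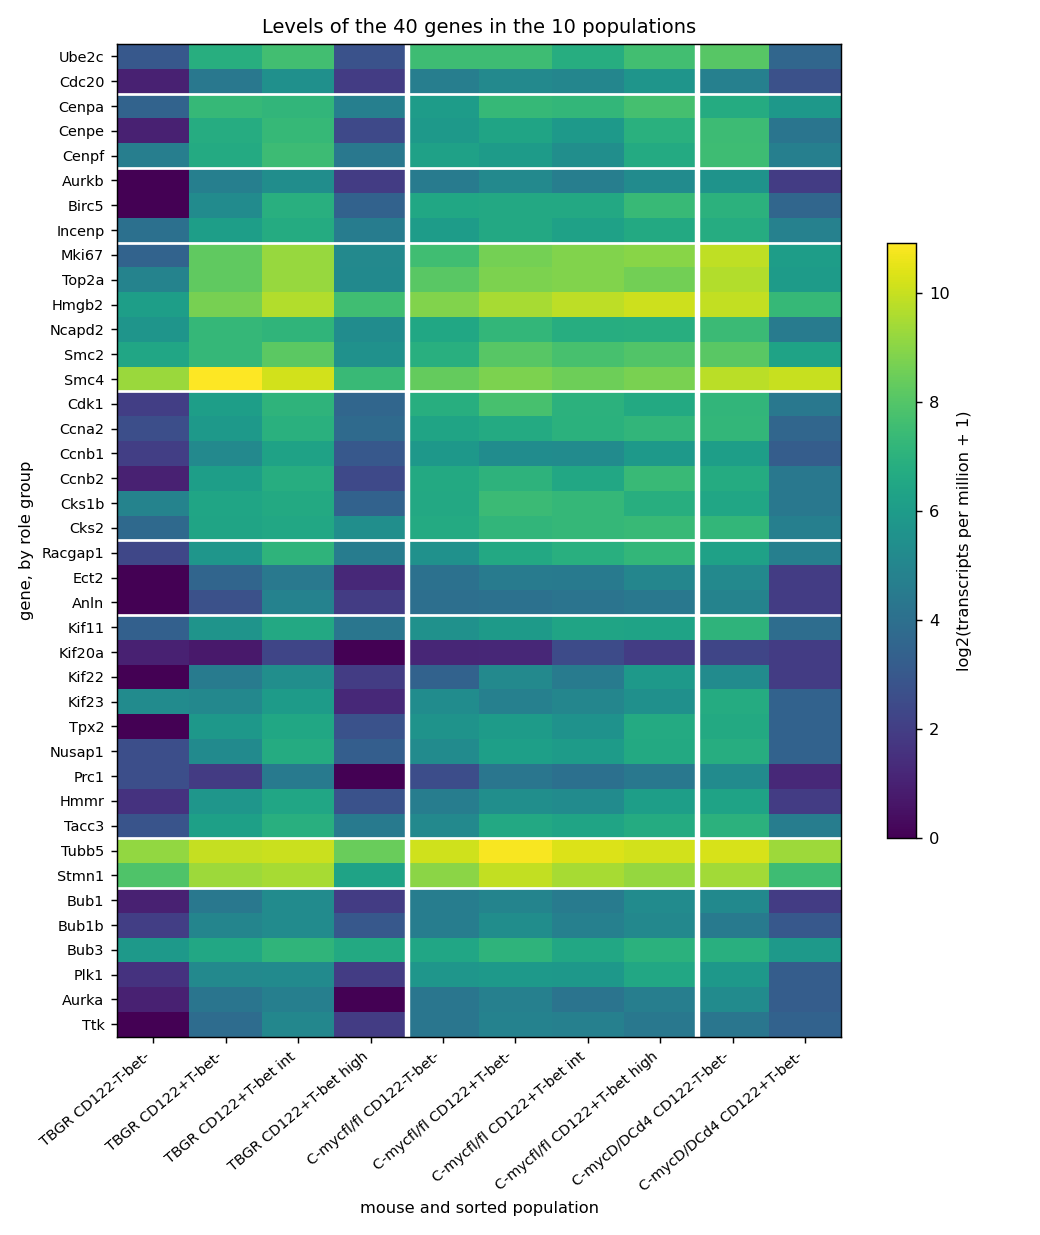
Levels of the 40 genes (rows, grouped by role and separated by white lines) in the 10 populations (columns), as log2 of CPM plus 1. In the TBGR mouse most rows are dark at both ends and bright in the middle, while Smc4, Tubb5 and Bub3 stay visible throughout.

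The C-mycfl/fl mouse at 2 weeks had more high-scoring cells in every gate than the TBGR mouse at 4 weeks. These mice differ in age, genotype and experiment, which cannot be told apart, so they are set side by side only. The share was 11.7% (14 of 120 cells, 6.53 to 18.8%) in CD122-, 28.7% (35 of 122, 20.9 to 37.6%) in CD122+, 31.0% (36 of 116, 22.8 to 40.3%) in T-bet int and 27.7% (31 of 112, 19.6 to 36.9%) in T-bet high cells. Within each of the 4 libraries holding both T-bet- gates, the CD122+ cells had the higher share, with 29.4% against 19.4%, 40% against 2.86%, 25.8% against 14.3% and 13.6% against 11.5%. Only in the second library did the exact intervals of the gates not overlap. In the fourth library, with 3 high-scoring cells in each gate, the summed members ran the other way. They stood at 3745 CPM in its CD122+ and 5183 CPM in its CD122- cells.

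With all cells, few single genes were called at this step. Of 38 tested members 35 lay above 0 with a median log2 ratio of 0.57, but the median over the 952 genes with at least 100 transcripts in 1 of the gates was itself 0.63, and over all 6790 tested genes it was 0.48. Only Smc2 (1.202), a condensin subunit, and Kif22 (1.74), a chromosome-arm kinesin, were called, where 13% of all genes were called higher and 2.12% lower. Neither was called when totals were counted without Gm10800 and these 15 other genes, and the log2 ratio of the summed members then fell from 0.67 to 0.19. Mki67 ran at 267, 37.2, 240.2 and 232 CPM in the CD122- cells and at 516, 489.7, 329 and 95.5 CPM in the CD122+ cells of the same 4 libraries. It was higher in CD122+ cells in 3 of them and lower in the other. The second library set the size of the pooled ratio, as its CD122- cells summed to 1442 CPM over the members against 4817 to 7947 CPM in the others, and without it the ratio was 0.24. The CD4+CD8+ thymocyte list stood at 354 CPM in the CD122- and 55.4 CPM in the CD122+ cells. Without the cells that held transcripts of Rag1, Rag2, Dntt or Ptcra, or of B cell genes, 21 of 36 tested members were called higher and the ratio was 2.09. The share of all genes called in the remaining cells is not given here, so that count has no background.

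T-bet high cells of the C-mycfl/fl mouse were close to its T-bet int cells in the members, unlike those of the TBGR mouse, a difference between mice that was not tested. The high-score share differed by -3.36 percentage points (95% Newcombe interval -15.6 to 9.05), and the summed members by a log2 ratio of 0.15. Of 39 tested members 32 lay above 0 with a median of 0.41, against -0.18 over all 6908 genes. The 3 called higher were the kinetochore protein Cenpf (1.29), Kif22 (1.34) and Tpx2 (1.08), where 2.37% of all genes were called higher. With each cell drawn down to 2000 transcripts, the ratio of the summed members turned to -0.20, and without the first library of these gates it was -0.0085, so its direction was not stable. The genes of S phase differed from the members here. Of 38 tested genes from a list of 40 S phase genes, 37 lay below 0 with a median of -0.89, and 8 were called lower, where 4.68% of all genes were. Summed, they stood at 5263, 4738, 5214 and 3474 CPM in T-bet int and at 2887, 2496, 3406 and 2036 CPM in T-bet high cells of the 4 libraries, lower in T-bet high cells within each library. The members summed over the same cells to 6399, 7202, 6315 and 6012 CPM, and to 9079, 5889, 8821 and 4531 CPM, higher in 2 libraries and lower in 2.

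For the C-mycD/DCd4 mouse, Myc itself was counted first. It measured 16.7 and 30.01 CPM in the 2 CD122- and 44.5 and 9.96 CPM in the 2 CD122+ libraries, 37 transcripts in all. In the C-mycfl/fl mouse it measured 63.0, 14.0, 62.3 and 24.4 CPM in CD122- and 73.8, 125, 135 and 10.6 CPM in CD122+ cells. The libraries of the 2 mice overlapped in both gates. Since the reads come from the 3′ end, and which part of the transcript the deletion removes is not given in the sources used here, these counts do not check the deletion.

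In this mouse the CD122 step ran against the other 2. The share of high-scoring cells was 20.3% (26 of 128 cells, 13.7 to 28.3%) in CD122- and 1.46% (2 of 137 cells, 0.177 to 5.17%) in CD122+ cells. By library it was 15.5% and 24.3% against 1.72% and 1.27%. The summed members stood at 8581 and 9071 CPM in CD122- and at 2677 and 2736 CPM in CD122+ libraries, a log2 ratio of -1.71. Of 39 tested members 35 were called lower in the CD122+ cells, where 7.84% of all 7425 genes were called lower and 13.4% higher, and the median log2 ratio was -2.85, against 0.13 over all genes. Mki67 measured 909.9 and 954 CPM against 73.0 and 62.2 CPM. Ube2c measured 241 and 287 CPM against 15.9 and 7.47 CPM, and Hmmr, a spindle-associated protein, 107 and 62.2 CPM against 0 and 4.98 CPM. Neither gate overlapped the other for these genes. The CD4+CD8+ thymocyte list stood at 741 CPM in the CD122- and 188 CPM in the CD122+ cells, and 48 of the 128 CD122- cells held transcripts of Rag1, Rag2, Dntt or Ptcra. Without these and the cells with B cell transcripts 19 of 25 tested members were called lower and the ratio of the sums was -0.78. For the remaining cells, too, the share of all genes called is not given. With all cells, the 4 tested members not called were Cenpa (-0.90), Tubb5 (-0.96), Ttk (-0.86) and Smc4 (0.24). Of the 40 members, 29 were called higher in the TBGR and lower in the C-mycD/DCd4 CD122 step, which have no cells in common. Over all tested genes 14.3% were called higher at the former and 7.84% lower at the latter step. Genes with both calls were not counted over all genes. Both members called in the C-mycfl/fl mouse were called in the opposite direction here. Those were 2 of 38 tested members, 5.26%, below the 13% of all genes called higher at that step.

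Other genes of the cycle were examined at the same steps. Of a further 111 G2/M genes in the tables, 60 of 88 tested were called higher at the TBGR CD122 step, where 14.3% of all genes were, and 69 of 96 called lower from T-bet int to T-bet high cells, where 11.7% were, with none in the other direction at either. At the C-mycD/DCd4 CD122 step 59 of 85 were called lower and none higher, against 7.84% of all genes called lower, with a median log2 ratio of -1.89. The C-mycfl/fl CD122 step gave 14 of 90 called higher, near the 13% of all genes, with a median of 0.76, and the T-bet step 5 higher and 6 lower of 97, against 2.37% and 4.68% of all genes, with a median of -0.05. Of the 40 S phase genes, 28 of 37 were called higher at the TBGR and 20 of 37 lower at the C-mycD/DCd4 CD122 step, against the same 14.3% and 7.84%.

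**Figure D4:**
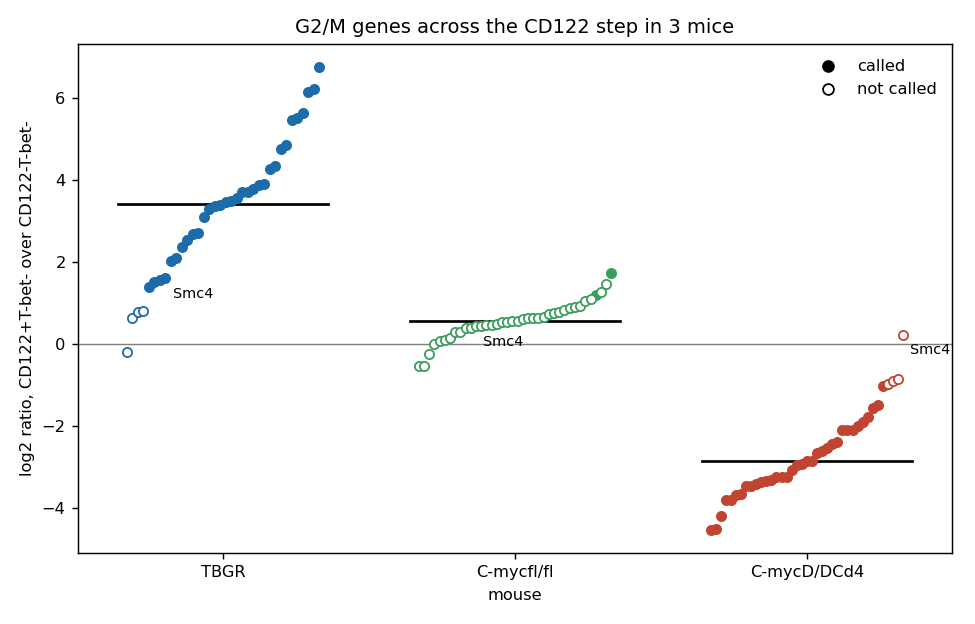
Log2 ratio of CD122+ over CD122- cells (y axis) for each tested member in the 3 mice (x axis), filled where called. Lines mark the medians, 3.43 in the TBGR, 0.57 in the C-mycfl/fl and -2.85 in the C-mycD/DCd4 mouse.

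The same cells entered the comparison between genotypes. Set against the C-mycfl/fl mouse of the same age, the CD122+ cells of the C-mycD/DCd4 mouse were low in the members. Of 36 tested members 35 lay below 0, with a median log2 ratio of -2.45 against 0.18 over all 7312 genes, and 18 were called lower, where 6.13% of all genes were called lower and 13.5% higher. These comprised all 3 members of the chromosomal passenger complex (Aurkb, -3.33, Birc5, -3.01, and Incenp, -1.81), 5 of 6 genes of chromosome structure and 4 of 6 of the cyclin group. Stmn1, a regulator of microtubule turnover, measured 200.1 and 167 CPM in the C-mycD/DCd4 and 552 to 1077.5 CPM in the 4 C-mycfl/fl libraries. Ube2c (-3.98) and Plk1 (-2.73) were not called, since the fourth C-mycfl/fl library, with 22 cells, had only 10.6 and 0 CPM. Without that library 34 were called lower, but the share of all genes called without it is not given, so that count has no background. The difference in the high-score share was -27.2 percentage points (95% Newcombe interval -36.2 to -18.6). The S phase genes were lower as well, with 23 of 37 called lower and a median of -1.41. Each genotype was treated as 1 mouse, and a difference between genotypes cannot be told apart from one between animals.

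In CD122- cells the same comparison gave a difference the other way. Of 39 tested members 36 lay above 0 with a median of 0.93, against 0.45 over all genes, and 13 were called higher, where 12.9% of all 6893 genes were called higher and 1% lower. Of the 13, 6 were spindle genes (Kif11, 1.57, Kif23, 1.44, Nusap1, 1.57, Prc1, 2.79, Hmmr, 1.74, and Tacc3, 1.90) and 4 were genes of chromosome structure. No gene of the cyclin group was called, and Cdk1 (0.35), Ccnb1 (0.32) and Ccnb2 (0.10) had overlapping libraries. Relative to the median gene 8 were called, with no share over all genes given for that rule. The high-score share differed by 8.65 percentage points with a 95% Newcombe interval of -1.07 to 18.2.

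Smc4, the ATPase of the condensin complexes that compact chromosomes, stood apart from the other members. In the TBGR mouse it measured 697 and 564 CPM in CD122-, 1605 and 2318 CPM in CD122+, 1242 and 1099 CPM in T-bet int and 129 and 239.9 CPM in T-bet high cells. It thus peaked in the CD122+ gate, whereas most members peaked in the T-bet int gate, and its ratio between them was -0.73. It made up 29.7% of all member transcripts in CD122+ cells, and 75.5% of its transcripts there lay in cells without a high score. Its partner Smc2 went the other way, with 156 and 151 CPM against 294 and 281 CPM. Ncapd2 and Cenpa were also highest in the CD122+ gate, by little, at 153 against 142 CPM and 157 against 144 CPM in T-bet int cells. In the C-mycD/DCd4 mouse Smc4 measured 903 and 868 CPM in CD122- and 800.3 and 1227 CPM in CD122+ cells, and there it was 38.4% of the member transcripts. It was the 1 member called higher in that gate than in the C-mycfl/fl mouse (1.24), where it measured 401, 476, 550.4 and 191 CPM. A list of 34 members without Smc4, Hmgb2, Tubb5, Stmn1, Cks1b and Bub3, the members also used outside mitosis or least tied to it, gave larger ratios of the sums than the 40 in size at 7 of 8 comparisons, the exception being the C-mycfl/fl CD122 step (0.64 against 0.67). They were 2.82 at the TBGR CD122 step, -3.27 from T-bet int to T-bet high, and -2.99 at the C-mycD/DCd4 CD122 step.

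Members other than Smc4, Bub3 and Tubb5 had over 50% of their transcripts in the high-scoring cells, which were 13.6% of all cells and held 19.8% of all transcripts. The share by member ran from 33.6% for Smc4 to 89.4% for Nusap1, with a median of 79.3%. As the members make up the score, these shares are a description. Other genes of the cycle, which do not enter the score, were high in the same cells. A further 111 G2/M genes summed to 18271 CPM in the high-scoring and 5382 CPM in the other CD122+ cells of the TBGR mouse, and to 23343 and 3849 CPM in CD122- cells of the C-mycD/DCd4 mouse. The S phase genes summed to 4344 against 2028 CPM and to 8480.5 against 1683 CPM in the same cells. Gm10800 and the 15 other genes took 7.09% of transcripts in these high-scoring and 16.9% in the other TBGR cells. In the C-mycD/DCd4 cells they took 11.4% and 50.3%, and their part in these sums was not tested. In every gate and library that held a high-scoring cell, except the 1 cell of the TBGR CD122- gate, the S phase sum was higher in the high-scoring than in the other cells. That single cell held 25 transcripts of Smc4 and none of Mki67 or Top2a.

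In the C-mycfl/fl mouse, high-scoring cells of the CD122- gate differed from those of its CD122+ and T-bet int gates in what else they carried. The C-mycD/DCd4 mouse had only 2 high-scoring CD122+ cells, too few for that contrast. Its high-scoring CD122- cells are set against the other cells of their gate. Dntt, the terminal transferase of receptor rearrangement, stood at 583 CPM in the high-scoring and 102 CPM in the other CD122- cells of the C-mycD/DCd4 mouse, and at 265 and 44.3 CPM in those of the C-mycfl/fl mouse. Ptcra, the pre-TCR α chain, stood at 184 against 20.02 CPM and at 96.8 against 19.8 CPM. At least 1 transcript of Rag1, Rag2, Dntt or Ptcra was present in 17 of 26 high-scoring and 31 of 102 other cells of the former mouse, and in 12 of 14 and 11 of 106 cells of the latter. Among the 35 and 36 high-scoring C-mycfl/fl CD122+ and T-bet int cells there was none, among the 27 in the TBGR T-bet int gate there were 2, and among the 31 in the C-mycfl/fl T-bet high gate there were 4. High-scoring cells were also deeper in these CD122- gates, with medians of 7775 against 3911 and 10975 against 5756 transcripts, which raises the chance of seeing any 1 transcript. CPM values are set against the depth, but their totals include Gm10800 and the 15 other genes. Those took 11.4% of transcripts in high-scoring and 50.3% in other C-mycD/DCd4 cells, and 14.9% against 59.2% in C-mycfl/fl cells. This leaves a larger rest for all other genes in high-scoring cells, and its part in the CPM contrasts was not tested. Cd4 stood at 3.76 against 62.1 CPM and at 0 against 119 CPM, and Trbc1, the T cell receptor β constant gene, at 5629.9 against 2824 CPM and at 4539 against 1778 CPM. The part of these cells in the comparisons was measured by leaving them out.

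Leaving out the 117 cells with such transcripts, and 4 with more than 1 transcript of B cell genes, an alternative chosen after the data were seen, changed the CD122- gates of the 2-week-old mice most. The high-score share of C-mycfl/fl CD122- cells went from 11.7% to 2.06% (2 of 97 cells, 0.251 to 7.25%) and that of C-mycD/DCd4 CD122- cells from 20.3% to 11.2% (9 of 80 cells, 5.28 to 20.3%). The CD122+ share was 29.2% in the C-mycfl/fl mouse, in place of 28.7%, and 0.746% in the C-mycD/DCd4 mouse, in place of 1.46%, as 1 of its 2 high-scoring cells was left out. At the C-mycfl/fl CD122 step 21 of 36 tested members were then called higher, in place of 2 of 38, and the log2 ratio of the summed members was 2.09 in place of 0.67. At the C-mycD/DCd4 CD122 step 19 of 25 tested members were called lower, in place of 35 of 39, and the ratio was -0.78 in place of -1.71. By library the members there summed to 4010.2 and 4787 CPM in CD122- and 2677 and 2507.5 CPM in CD122+ cells, still apart. In the TBGR mouse the shares became 0.645%, 9.89%, 15.2% and 0.709% in the order of the gates. The rule leaves out a deeper cell more readily than a shallow one. It left out 23 of 120 CD122- and 2 of 122 CD122+ cells of the C-mycfl/fl mouse. In the C-mycD/DCd4 mouse it left out 48 of 128 and 3 of 137. The share of all genes called in the remaining cells is not given, so the 21 and 19 calls have no background.

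**Figure D5:**
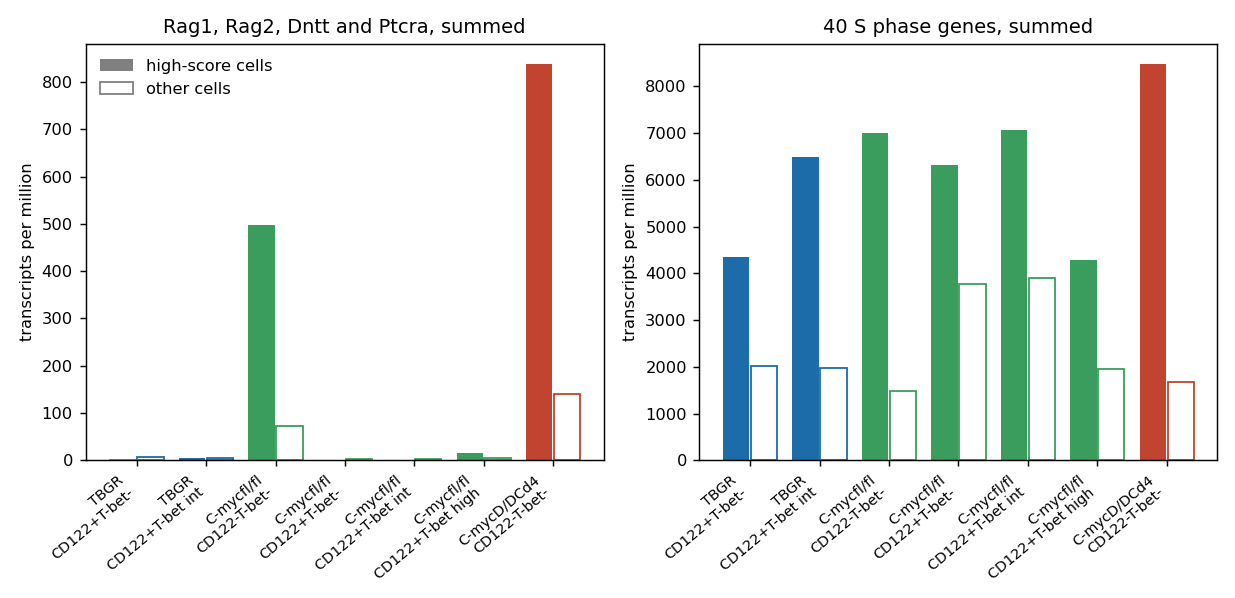
Summed CPM of Rag1, Rag2, Dntt and Ptcra (left) and of 40 S phase genes (right) in high-scoring (filled) and other cells (open), for the 7 populations with at least 10 high-scoring cells. The left bars reach 839 and 497 in the CD122- gates of the C-mycD/DCd4 and C-mycfl/fl mice and at most 16.3 elsewhere, and the right bars are higher in high-scoring cells of every population shown.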

How the data were processed

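Cells were taken from the thymus after depletion of CD4+ and CD8+ cells, sorted singly into wells and sequenced by CEL-Seq2, which reads the 3′ end of each transcript and carries a unique molecular identifier (UMI) of 6 bases. Levels are therefore not divided by gene length. The authors demultiplexed with bcl2fastq 2.17.1.14, aligned with BWA 0.6.2-r126 to mouse gene models with spike-ins, discarded reads mapping to several places and counted UMIs per cell. The deposited tables hold expected counts, that is, UMI counts corrected by the authors for identifiers drawn more than once, and give the gate of each well. Here they were rounded to whole transcripts, with mitochondrial genes and spike-ins left out. Of 1920 wells, 507 had fewer than 2000 transcripts and were left out, and 1413 cells remained. The study also removed cells with over 2% of Kcnq1ot1 transcripts (0 cells here, the highest share being 0.902%) and genes following 4 named genes at a correlation above 0.65. Here those genes stayed in the main values, and in an alternative the totals were taken without 16 genes, the 4 named and 12 following any of them. The libraries used 2 sets of 96 cell barcodes, each shared by 10 libraries. No doublet caller was run.

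Transcripts were summed per gate and library. Log2 ratios were taken between sums with 0.5 transcripts added, for genes with at least 20 transcripts in both gates together. A gene was called when the ratio passed 2-fold and library values did not overlap, or, in the C-mycfl/fl mouse, where each library held both gates, when the ratio had the same sign within every library. Cell scores are members among 2000 transcripts drawn without replacement. Intervals are exact Poisson for levels, exact binomial for shares and Newcombe for differences of shares, at 95%, and cover counting error only. With each genotype treated as 1 mouse there was no test. The members and the other lists (117 further G2/M genes, of which 111 are in the tables, 40 S phase genes and 8 lists of cell type markers) were chosen with earlier results of these data known. All members are accounted for, and those described were chosen by role and by the call rule. Alternatives changed the cell and gene minimum, the fold, the score threshold, the list, the depth, the centring and the libraries. The calling step was tested on simulated data. Python 3.11.15, numpy 2.4.6, scipy 1.17.1, pandas 2.3.3 and matplotlib 3.10.9 were used. Promoter windows came from RefSeq, GRCm38.p6, and Ccna2, Aurkb, Kif20a, Tpx2, Stmn1, Smc4 and Incenp had no entry matched.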

Additional observations from a re-analysis of the deposited data

Results flagged for a closer look

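Of 60 groups of 4 libraries examined by Dixon's criterion, 3 held a library far from the others, where chance marks about 1 in 20. In C-mycfl/fl CD122- cells, Mki67 measured 37.2 CPM in the second library and 232 to 267 CPM in the others. In C-mycfl/fl T-bet int cells, Cks2 measured 101 CPM in the last library against 163 to 171 CPM, and Stmn1 614 CPM against 737 to 759 CPM.

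The CD122 step ran in opposite directions between mice, a difference that was not tested and cannot be told apart from one between animals. The high-score share in CD122+ minus that in CD122- cells was -18.85 percentage points in the C-mycD/DCd4 mouse, and the shares of its CD122+ libraries lay below both of its CD122- libraries. In the TBGR mouse they lay above both, and in the C-mycfl/fl mouse the CD122+ cells had the higher share within each library. The summed members differed by -6169 CPM in the C-mycD/DCd4 mouse, against a positive difference in the TBGR mouse. At the level of genes, 29 members were called higher in the TBGR and lower in the C-mycD/DCd4 mouse. Over all tested genes 14.3% were called higher in the former and 7.84% lower in the latter. A further pattern held for 2 members, Smc2 and Kif22, called higher in the C-mycfl/fl and lower in the C-mycD/DCd4 mouse. They were 2 of 38 members tested in the C-mycfl/fl mouse, 5.26%, where 13% of all genes were called higher. The members as a set were thus not called more often than other genes there. Genes with both calls were not counted over all genes.

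Barcodes to which no cell had been assigned held 335 member transcripts of 51080, or 6558 CPM (95% exact Poisson interval 5875 to 7299.6). Wells under the minimum held 4050.0 CPM (3865 to 4241) and the kept cells 5751 CPM (5702 to 5801). The part of such transcripts in the values of single cells was not tested.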

How the results depend on the processing

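The limits of these data come first from genotypes that each had to be treated as 1 mouse, and from thin counts. With 112 to 186 cells per gate, single members had few transcripts. A pair of alternatives was chosen after the data were seen, namely leaving out cells with pre-selection thymocyte or B cell transcripts, and totals without Gm10800 and 15 other genes (named in the methods or correlated with those). Results are given in the order TBGR CD122 step (main values 9.10 percentage points of high-scoring cells, 32 calls, log2 ratio of summed members 1.75), TBGR T-bet int against CD122+ (6.11, 9 and 0.31), TBGR T-bet high against int (-14.4, 38 and -2.62), C-mycfl/fl CD122 step (17.0, 2 and 0.67), C-mycfl/fl T-bet high against int (-3.36, 3 and 0.15), C-mycD/DCd4 CD122 step (-18.9, 35 and -1.71), and C-mycD/DCd4 against C-mycfl/fl in CD122- (8.65, 13 and 0.89) and CD122+ cells (-27.2, 18 and -1.49). Results not named under an alternative moved by less than the spread between libraries, or, for calls, by less than 1.5 times. The cause of each shift was not tested. The share of all genes called is given for the main rule only. Counts of calls under the alternatives and without single libraries thus have no background.

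With a threshold of 10 of 2000 transcripts the high-score difference was 39.95, -16.46 and -27.20 percentage points at the TBGR steps, so the second changed sign, 31.63 and -17.73 at the C-mycfl/fl steps and -41.51 between genotypes in CD122+ cells. With a threshold of 30 it was 4.30 at the TBGR CD122 step and -13.93 between genotypes in CD122+ cells. The list of 34 members with a threshold of 5 gave 15.02 at the TBGR CD122 step. The difference at the C-mycfl/fl T-bet step was 1.11 with at least 3000 transcripts per cell and 0.862 unthinned. Totals without Gm10800 and the 15 other genes, which also left 194 cells under the minimum of 2000, gave -31.23 at the C-mycD/DCd4 CD122 step and -40.5 between genotypes in CD122+ cells. Without cells with pre-selection transcripts the former was -10.50.

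Requiring 100 transcripts per gene left 16, 5, 1, 17 and 10 calls at the TBGR CD122, TBGR T-bet int, C-mycfl/fl CD122 and C-mycD/DCd4 CD122 steps and between genotypes in CD122+ cells. Cells thinned to 2000 transcripts gave 11, 21, 5, 1 and 21 calls at the TBGR CD122, TBGR T-bet high, C-mycfl/fl CD122, C-mycfl/fl T-bet and C-mycD/DCd4 CD122 steps. A 1.5-fold limit gave 28 calls at the TBGR T-bet int and 4 at the C-mycfl/fl CD122 step. Relative to the median gene there were 0, 5 and 8 calls at the C-mycfl/fl CD122 and T-bet steps and between genotypes in CD122- cells, where the median gene lay at 0.63, -0.22 and 0.48. It lay at 0.34, 0.07 and -0.22 at the TBGR steps. Totals without these 16 genes gave 0 calls at the C-mycfl/fl CD122 step and 8 between genotypes in CD122- cells. Without cells with pre-selection transcripts 21 and 19 members were called at the C-mycfl/fl and C-mycD/DCd4 CD122 steps, with no share over all genes given. In the C-mycfl/fl mouse each library held both gates, and the main calls pair them. With no replicate block 1 member was called at its CD122 and 0 at its T-bet step. No paired analysis was possible because in the other comparisons the gates or mice compared lay in separate libraries that share no sample.

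The log2 ratio of the summed members in thinned cells was 1.43, 0.10, 1.05, -1.23 and 0.78 at the TBGR CD122, TBGR T-bet int, C-mycfl/fl CD122 and C-mycD/DCd4 CD122 steps and between genotypes in CD122- cells, and it changed sign to -0.20 at the C-mycfl/fl T-bet step. The list of 34 gave 2.82, 0.80, -3.27, 0.33, -2.99, 1.18 and -2.45 in the order above, leaving out the C-mycfl/fl CD122 step. At least 3000 transcripts per cell gave -1.82 at the C-mycD/DCd4 CD122 step. Without cells with pre-selection transcripts it was -2.79, 2.09, 0.058, -0.78 and 1.31 at the TBGR T-bet high, C-mycfl/fl CD122, C-mycfl/fl T-bet and C-mycD/DCd4 CD122 steps and between genotypes in CD122- cells. Totals without these 16 genes gave 1.47, 0.21, 0.19, 0.30, -1.79 and 0.53 at the TBGR CD122, TBGR T-bet int, C-mycfl/fl CD122, C-mycfl/fl T-bet and C-mycD/DCd4 CD122 steps and between genotypes in CD122- cells.

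Leaving out 1 library at a time gave 27 to 34, 9 to 14, 34 to 38, 1 to 7, 1 to 9, 26 to 35, 10 to 22 and 17 to 34 calls in the order above. The log2 ratio then ran from 1.57 to 1.95, 0.30 to 0.33, -3.12 to -1.96, 0.24 to 0.95, -0.0085 to 0.33 (below 0 without the first T-bet int and high library), -1.74 to -1.66, 0.56 to 1.26 and -1.59 to -1.39. Single libraries decided the counts in 5 comparisons. Without the first TBGR CD122+ library 14 members were called at the T-bet int step. At the C-mycfl/fl CD122 step there were 4, 1, 4 and 7 calls without the first to the last library, and at its T-bet step 1, 9 and 6 without the first, second and last library. Between genotypes there were 22 calls in CD122- cells without the first C-mycfl/fl library and 34 in CD122+ cells without the last.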
